A study of Mus musculus with 6 samples.

Results

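Tau (Mapt) and 6 other neuronal genes of the microtubule lattice, Map1a, Map1b, Map2, Map6, Dcx and Dclk1, were followed through a pulldown of RNA with the RNA-binding protein HuD. The members were all probe sets that the platform annotation pairs with 1 of these 7 symbols and with no other gene. They numbered 28 of the 45101 probe sets on the array, with 4 for Mapt, 2 for Map1a, 3 for Map1b, 4 for Map2, 2 for Map6, 4 for Dcx and 9 for Dclk1. RNA from mouse hippocampus was read in 6 samples, each on its own 1-colour Affymetrix array. In 3 samples (HuD arrays 1 to 3) the RNA came from protein-G beads with anti-myc antibody that had captured transgenic HuD, in 2 (IgG arrays 1 and 2) from protein-G beads with non-immune IgG, and 1 was the total input RNA. The series title speaks of HuD overexpression, and neither strain, age, the promoter of the transgene nor the genotype behind the IgG and input samples is given in the sources used here. Nor is it given whether arrays of a group came from separate animals, so p-values measure only how far these arrays differ among themselves, and part of that may be technical.

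Microtubules of axons and dendrites are held and spaced by proteins that bind along the tubulin lattice. Tau and MAP2 share a family of carboxy-terminal repeats and are known for their enrichment in axons and dendrites, respectively. MAP1A and MAP1B are large proteins made as precursors that are cut into a heavy and a light chain, with MAP1B prominent in growing neurites and MAP1A in mature ones. MAP6 (STOP) makes microtubules resistant to cold, and doublecortin (Dcx) and its relative Dclk1, a doublecortin-like kinase, stabilise microtubules of migrating and newborn neurons. HuD, the product of Elavl4, belongs to the neuronal ELAV proteins, which bind U-rich and AU-rich stretches in 3′ untranslated regions. Tau mRNA is among the transcripts described as bound by neuronal ELAV proteins.

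The deposited values were signals on a linear scale that the authors had scaled to a common level per array, so each value is a share of an array's signal and no total amount of recovered RNA. Probe sets in the upper part of the mean log2(signal + 32), split at the median, were tested with limma, and differences are log2 differences on that scale with their standard errors. Folds are on the same scale, which understates changes of dim probe sets. Of the 28 members 23 were in the tested part. The remaining 5 (Map1b 1421850_at, Map2 1421327_at, Dcx 1418140_at and 1448974_at, and Dclk1 1451917_a_at) had signals of at most 29.9 on any array. Fitted with all probe sets, these 5 had log2 differences between HuD and IgG from −0.45 to 0.40, and their smallest adjusted p by limma was 0.154.

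All 3 probe sets of the bait's gene Elavl4 rose with HuD over IgG, by 2.13 ± 0.28, 1.23 ± 0.27 and 1.46 ± 0.26 on the log2 scale (adjusted p at most 0.00500 by limma). HuD was transgenic here and the genotype behind the IgG and input samples is not given. More Elavl4 RNA in the tissue and its capture on the beads therefore cannot be told apart. IgG array 1 and IgG array 2 differed at least 2-fold in 2215 of the 22518 tested probe sets, against 196 to 823 in pairs of HuD arrays. In bulk RNA from pulldowns, cell number, RNA per cell and capture of an RNA on the beads cannot be told apart. Marker genes were read by the brightest probe set of each, where 16% of all 11957 tested genes were called higher and 28.2% lower. Of 5 tested neuron markers 1 rose in the HuD pulldowns (Snap25), while 1 other probe set of Rbfox3 and 2 of Syt1 fell. On the brightest probe sets Rbfox3 (−0.62), Syn1 (−0.55), Syt1 (0.24) and Nrgn (0.23) did not pass. The summed signal of the 5 was 21664 to 26354 with HuD, 16746 to 20614 with IgG and 18915 in the input. Snap25 alone read 11136 to 16051 with HuD, 6243 and 8139 with IgG and 7146 in the input. All 5 listed markers of hippocampal excitatory neurons were bright enough to test, 2 of them rose (Tbr1 and Neurod2) and 3 did not pass. The summed signal of the 5 was 2896 to 3088 with HuD, 1538 to 1631 with IgG and 2043 in the input. Tbr1 alone read 1058 to 1483 with HuD, 282 and 226 with IgG and 328 in the input. Of 5 tested markers each, 3 fell for oligodendrocytes, 3 for astrocytes and 3 for microglia, with summed signals of 13128 to 17545, 5576 to 6853 and 1382 to 1897 with HuD against 21882 to 27522, 12373 to 13415 and 2747 to 4438 with IgG and 16650, 11863 and 4202 in the input. Of 2 tested endothelial markers 1 fell (Cldn5), with sums of 60.7 to 77.3, 165 to 247 and 144 in the order HuD, IgG and input. For choroid plexus and blood, 3 listed markers were tested, all of choroid plexus (Ttr, Kcnj13 and Clic6), and 0 passed. Of the blood markers, Hba-a1 was too dim and Hbb-bs was not annotated. The sums of this list were 12208 to 15335, 16281 to 18625 and 9411 in the same order. Ttr made up most of them, and 1 other probe set of Ttr fell. The part of these cell types in the values below was not tested.

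**Figure D1:**
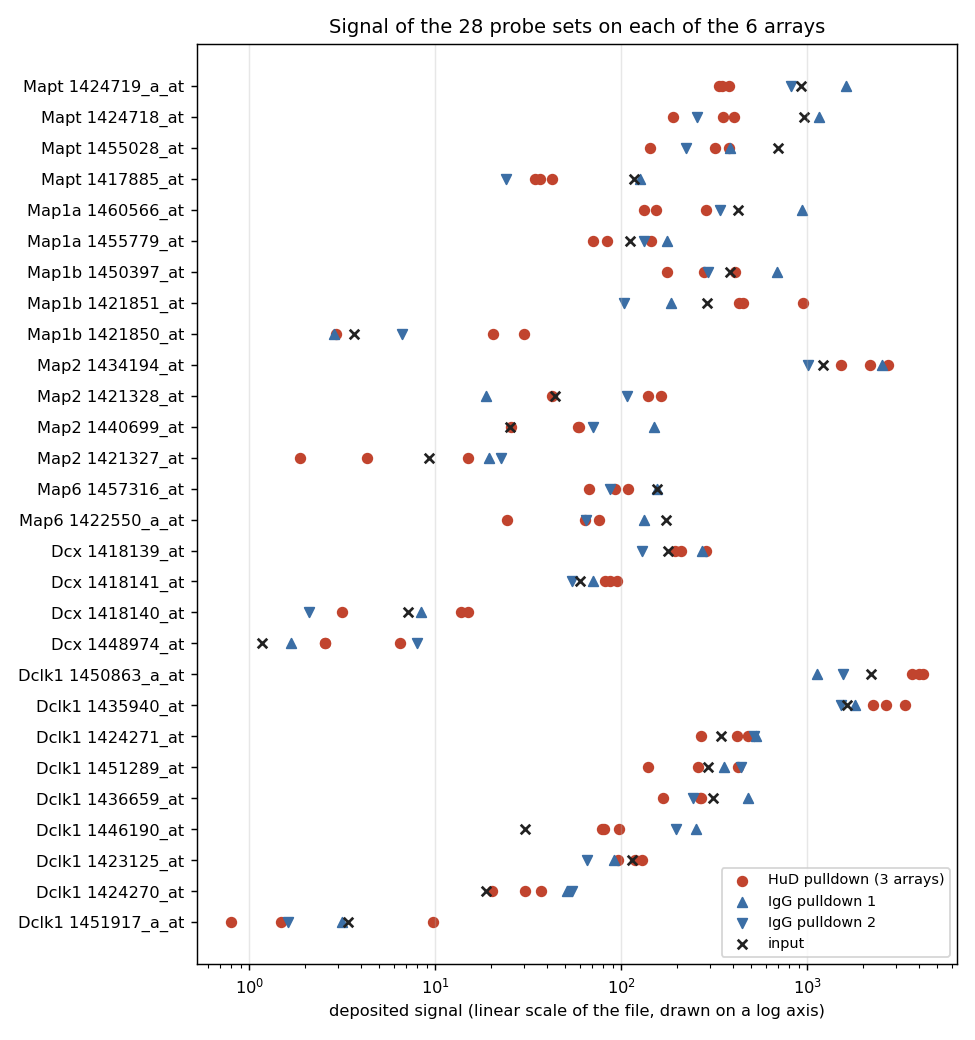
Deposited signal of each of the 28 probe sets (rows) on the 6 arrays, on a logarithmic axis. Circles are the 3 HuD pulldowns, upward and downward triangles are IgG pulldowns 1 and 2, and crosses are the input; the 3 HuD circles of Dclk1 1450863_a_at lie to the right of all others in their row, and those of Mapt 1424719_a_at to the left.

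HuD was set against IgG to ask which of these transcripts took a larger share of the signal on beads with HuD than on beads without it. One probe set each of Map1b and Dclk1 rose, one each of Mapt, Map1a and Dclk1 fell, and Map2, Map6 and Dcx had no probe set past the threshold. Of the 23 tested members, 2 were called higher and 3 lower by limma at an adjusted p under 0.05, and 18 did not pass. An unadjusted p under 0.05 was found for 7 of the 23, the 5 called ones included. Over all tested probe sets 14.7% were called higher and 26% lower, 40.7% in all, so the share of members called, 21.7%, was below that of the array. The median log2 difference of the members was −0.44, beside −0.26 over all tested probe sets. HuD and IgG arrays did not overlap in 5 members above and 6 below IgG, where the background was 22.2% and 40% of all tested probe sets, 62.2% together. Calls and differences depend on single IgG arrays. Mapt 1424718_at, for example, was at −1.84 without IgG array 2 and at 0.21 without IgG array 1. Of the 23 members, 7 changed sign under at least 1 of the alternatives.

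**Figure D2:**
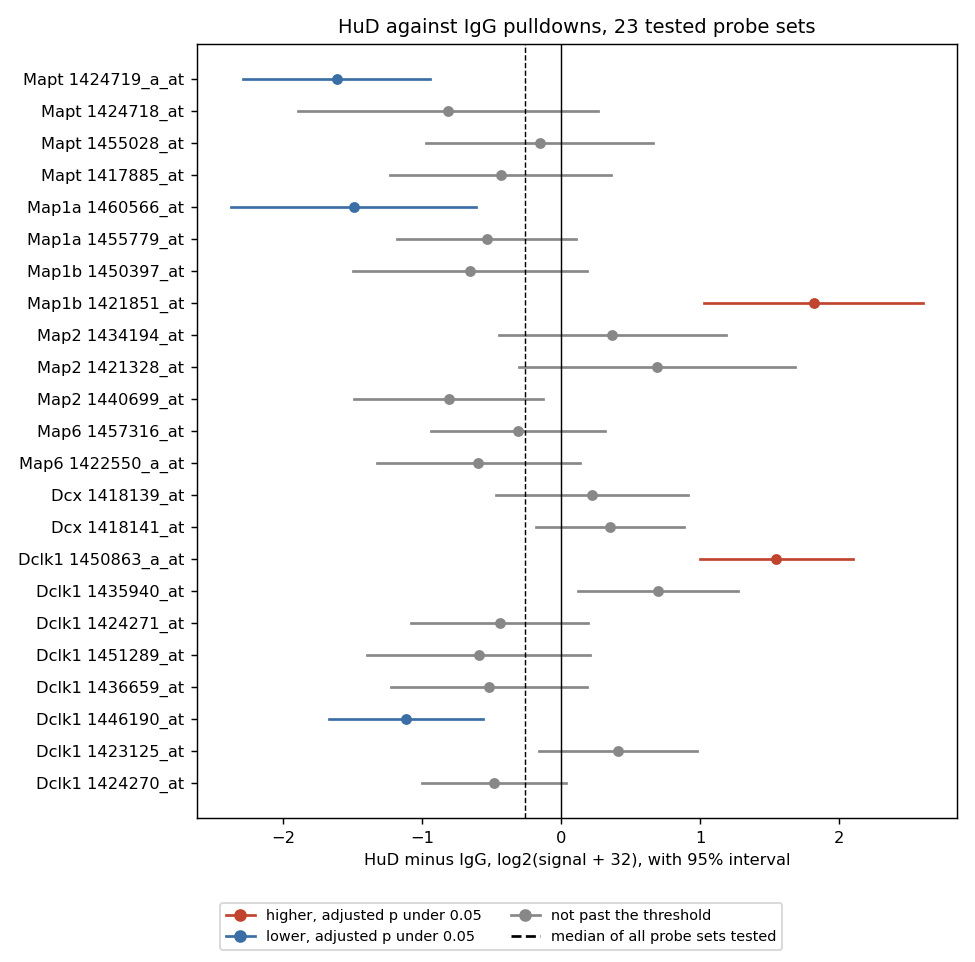
Log2 difference between the 3 HuD and 2 IgG pulldowns for the 23 tested probe sets, with 95% intervals from limma. Red marks the 2 called higher, blue the 3 called lower and grey the rest; the dashed line is the median of all tested probe sets at −0.26.

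Mapt fell in the HuD pulldowns on its brightest probe set. Probe set 1424719_a_at read 349, 381 and 337 on the 3 HuD arrays, 1627 and 816 on the IgG arrays and 925 in the input. The HuD values lay close together and below every other array, while the input fell between the IgG arrays. The means were 356 ± 23 (SD, n = 3) with HuD and 1222 ± 574 (SD, n = 2) with IgG. It fell 3.06-fold against IgG (log2 difference −1.62 ± 0.31, limma adjusted p = 0.00238). The difference stayed past the threshold under all 12 alternatives run on this probe set, between −2.10 and −1.13, both ends from leaving out 1 IgG array. Relative to the median of all tested probe sets it was −1.36.

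The other 3 probe sets of Mapt did not pass against IgG. Probe set 1424718_at read 352, 404 and 190 with HuD, 1162 and 256 with IgG and 960.2 in the input. Here IgG array 1 stood near the input and IgG array 2 among the HuD arrays, and the difference was −0.81 ± 0.50 (limma adjusted p = 0.204). Probe set 1417885_at also had IgG array 1 near the input, and IgG array 2 below all HuD arrays, with 34.4, 42.7 and 36.6 on the HuD arrays, 127 and 24.1 on the IgG arrays and 118 in the input (−0.43 ± 0.36, limma adjusted p = 0.358). Probe set 1455028_at read 319, 142 and 379 with HuD, 383 and 224 with IgG and 698 in the input, which was above all 5 pulldown arrays (−0.16 ± 0.37, limma adjusted p = 0.762). Without IgG array 2, 1424718_at (−1.84) and 1417885_at (−1.18) were called lower, and without IgG array 1 their differences were 0.21 and 0.31. With the 4 probe sets averaged, Mapt was at −0.75 and did not pass (limma adjusted p = 0.0994).

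Map1a and Map1b, the paired large precursors, had 1 called probe set each, lower for Map1a and higher for Map1b. Map1a probe set 1460566_at read 133, 285 and 153 with HuD, 933 and 341 with IgG and 423 in the input. All HuD arrays were below both IgG arrays and below the input, and the probe set fell 2.81-fold against IgG (−1.49 ± 0.40, limma adjusted p = 0.0126). This call was lost without HuD array 1 (−1.31, limma adjusted p = 0.0568), without IgG array 1 (−0.81, limma adjusted p = 0.110) and with no filter on dim probe sets (limma adjusted p = 0.0559), and without IgG array 2 the difference was −2.18. Its second probe set, 1455779_at, had HuD signals of 70.1, 144 and 84.1, IgG signals of 177 and 132 and 112 in the input, and the groups overlapped (−0.54 ± 0.30, limma adjusted p = 0.164).

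Map1b showed the largest difference of any member and also a second probe set of opposite sign. Probe set 1421851_at read 451, 949.6 and 429 with HuD, 184 and 103 with IgG and 289 in the input. Every HuD array was above the input and the input above both IgG arrays, and the means were 610.0 ± 294 (SD, n = 3) and 144 ± 57 (SD, n = 2). It rose 3.52-fold against IgG (1.82 ± 0.36, limma adjusted p = 0.00286), a call that held under all 12 alternatives with differences between 1.46 and 2.15. Probe set 1450397_at had HuD signals of 280, 410.0 and 176, IgG signals of 684 and 293 and 385 in the input. Its groups overlapped and its difference did not pass (−0.66 ± 0.39, limma adjusted p = 0.190), and without IgG array 2 it was called lower (−1.23). The 2 differences lay 2.47 apart on the log2 scale, a gap at or above that of 99.1% of the 3093 genes with the same number of tested probe sets. That gap was not tested.

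Map2, the dendritic relative of tau, had no probe set past the threshold between the pulldowns. Probe set 1434194_at read 2169, 2705 and 1529 with HuD, 2540 and 1007 with IgG and 1218 in the input. The 2 IgG arrays enclosed all but 1 of the HuD arrays, and the difference was 0.37 ± 0.37 with a 95% interval from −0.44 to 1.18 (limma adjusted p = 0.449). Without IgG array 1 it was 1.02 and passed. Probe set 1421328_at had uneven replicates in both pulldowns, at 139, 42.3 and 164 with HuD, 18.8 and 107 with IgG and 44.0 in the input (0.69 ± 0.46, limma adjusted p = 0.243); without IgG array 2 it was 1.42 and passed. Probe set 1440699_at had 25.6, 58.6 and 59.0 with HuD, below 149.7 and 70.9 with IgG, and 25.3 in the input. Its difference, −0.81 ± 0.31, just missed the threshold (limma adjusted p = 0.0558) and passed without IgG array 2 (−1.22).

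For Map6, the factor of cold-stable microtubules, no difference from IgG passed. Probe set 1457316_at read 67.1, 92.9 and 109 with HuD, 155 and 86.9 with IgG and 155 in the input, a difference of −0.31 ± 0.29 (95% interval −0.94 to 0.32, limma adjusted p = 0.410). Probe set 1422550_a_at read 24.3, 76.0 and 64.0 with HuD, 133 and 64.9 with IgG and 173 in the input (−0.60 ± 0.34, limma adjusted p = 0.171). In both probe sets IgG array 2 lay among the HuD arrays and the input was above all 3 of them. The second passed without IgG array 2 (−0.98).

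No doublecortin probe set passed between the pulldowns. Dcx probe set 1418139_at read 287, 196 and 210 with HuD, 274 and 130 with IgG and 179 in the input (0.22 ± 0.32, 95% interval −0.47 to 0.91, limma adjusted p = 0.597). Probe set 1418141_at was among the steadiest of the members, at 95.3, 87.1 and 82.1 with HuD, 70.2 and 54.4 with IgG and 59.8 in the input. All HuD arrays were above both IgG arrays and the input, by 0.35 ± 0.24 against IgG (95% interval −0.18 to 0.89, limma adjusted p = 0.263), and the difference passed with 75th percentile centring of the arrays (0.67) and with quantile normalization (0.68). Of newborn neurons, the cells that make most doublecortin in the adult hippocampus, 3 markers were tested and 2 more were too dim. Sox4 and Sox11 rose on their brightest probe sets and Neurod1 did not pass. The other 3 tested probe sets of Sox4, at 0.097 to 0.92, did not pass, while 4 of the other 5 of Sox11 rose. The summed signal of the markers was 3412 to 3678 with HuD, 1091 to 1272 with IgG and 891 in the input. The brightest probe set of Sox4 made up most of the HuD sum. It read 2229 to 2496 with HuD, 364 and 307 with IgG and 410 in the input. The part of these cells in the Dcx values was not tested.

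Dclk1, read by 8 tested probe sets, rose on its brightest one and fell on another. Probe set 1450863_a_at read 4189, 3667 and 4009 with HuD, 1127 and 1565 with IgG and 2203 in the input. The HuD arrays stood within a narrow range above the input and the IgG arrays below it, with means of 3955 ± 265 (SD, n = 3) and 1346 ± 309 (SD, n = 2). The rise was 2.93-fold (1.55 ± 0.25, limma adjusted p = 0.00112), the smallest adjusted p among the members, and held under all 12 alternatives between 1.32 and 1.87. The next brightest, 1435940_at, read 3343, 2251 and 2644 with HuD, 1804 and 1527 with IgG and 1643 in the input. It was higher on every HuD array than on any other, and its difference of 0.70 ± 0.26 just missed the threshold (limma adjusted p = 0.0518). This value passed when arrays were centred on their median (0.85) or 75th percentile (1.01), when the suffix of the sample titles served as a replicate block (0.76), and without IgG array 1 (0.81) or HuD array 2 (0.83).

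Dclk1 probe set 1446190_at went the opposite way. It read 79.0, 97.9 and 81.3 with HuD, 252 and 198 with IgG and 30.3 in the input. The input was the lowest of all arrays and the IgG arrays the highest, so the fall against IgG, 2.17-fold (−1.12 ± 0.25, limma adjusted p = 0.00555), went with a HuD signal above the input. That input value was 1 dim reading. The call held under all 12 alternatives, between −1.27 and −0.80. The other 5 tested probe sets had differences from −0.59 to 0.41, and none passed. Probe set 1423125_at was higher on every HuD array than on either IgG array (0.41 ± 0.26), with the input among the HuD arrays, and passed with 75th percentile centring and with quantile normalization (0.73 in both). Probe sets 1424271_at (−0.44 ± 0.29) and 1424270_at (−0.49 ± 0.24) were lower on every HuD array than with IgG, and 1451289_at (−0.59 ± 0.37) and 1436659_at (−0.52 ± 0.32) overlapped, the latter passing without IgG array 2 (−0.96).

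The probe sets of Dclk1 spanned 2.66 on the log2 scale, the widest of the 9 genes with 8 tested probe sets, whose median span was 0.90. For Mapt the span was 1.46 against a median of 1.05 over 411 genes with 4, for Map2 1.5 against 0.82 over 1167 genes with 3, and for Map1a 0.96 against 0.46. Map6 (0.29) and Dcx (0.13) spanned less than the median of genes with 2. Of the 28 probe sets 4 carry the suffix _a_at, which the array's maker uses for sets that read several transcripts of 1 gene, and the stretch of transcript each set reads is not given in the sources used here. Averaged over all its probe sets, Map1a stayed lower (−1.01, limma adjusted p = 0.0345), Dclk1 was at −0.049, Map2 at −0.051, Map1b at 0.52, Map6 at −0.45 and Dcx at 0.18, and none of these 5 passed.

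Against the input, which was 1 array assumed to vary like the others, Mapt and Map6 were the genes called lower with HuD. Of the 23 members 0 were called higher and 2 lower by limma, 7 had an unadjusted p under 0.05, and over all tested probe sets 9.75% were called higher and 15.6% lower, 25.4% in all. The members' median was −0.0042 and that of all tested probe sets −0.14. The 4 Mapt probe sets were lower with HuD than in the 1 input array. The share of all tested probe sets that were below the input is not given here. Probe set 1424719_a_at was 2.47-fold lower (−1.31 ± 0.39, limma adjusted p = 0.0305). The others did not pass, at 2.98-fold for 1424718_at (−1.57 ± 0.63, limma adjusted p = 0.0829), 2.49-fold for 1455028_at (−1.32 ± 0.47, 0.0591) and 2.15-fold for 1417885_at (−1.10 ± 0.46, 0.0977). The average over the 4 was −1.32 and passed (limma adjusted p = 0.0483). Map6 1422550_a_at was 2.45-fold below the input (−1.30 ± 0.42, limma adjusted p = 0.0425), while 1457316_at, at −0.64, missed the threshold. Both single calls were lost under 7 of 12 alternatives, among them the 3 that left out 1 HuD array.

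Input differences of the other members pointed both ways and none passed. Map1a 1460566_at was at −1.09 ± 0.51 (limma adjusted p = 0.134), Map1b 1421851_at at 0.91 ± 0.46 (0.161), Map2 1434194_at at 0.76 ± 0.47 (0.255), Dclk1 1450863_a_at at 0.83 ± 0.32 (0.0740) and 1446190_at at 0.92 ± 0.32 (0.0544). The spread in this fit comes in part from the IgG pair. Without IgG array 1 or without IgG array 2 these differences stayed the same, and only their spread and adjusted p-values changed. In all, the input lay above all 3 HuD arrays in 8 tested members, below all 3 in 9 and among them in 6. The share over all tested probe sets is not given here, so these counts are no result about the members.

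IgG was set against the input to ask which members differed in their share of the signal on beads with non-immune IgG. Dclk1 1446190_at was 4.10-fold above the input with IgG (2.03 ± 0.34, limma adjusted p = 0.0379). It was 1 of 54 probe sets called on the whole array (0.24%, with 0.235% higher and 0.00444% lower), and this call was lost under 8 of 12 alternatives. Its input signal, 30.3, was 1 dim reading, close to the 29.9 reached by members too dim to test. The other 22 members did not pass, 4 members in all had an unadjusted p under 0.05, and the median difference was 0.13. Map2 1440699_at was at 1.25 ± 0.42 (limma adjusted p = 0.318), with both IgG arrays above the input, and Mapt 1455028_at at −1.16 ± 0.50 (limma adjusted p = 0.481), with both below. The comparisons with the input share that array, and the HuD and IgG values for each member stand side by side in the plot of both pulldowns against the input.

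**Figure D3:**
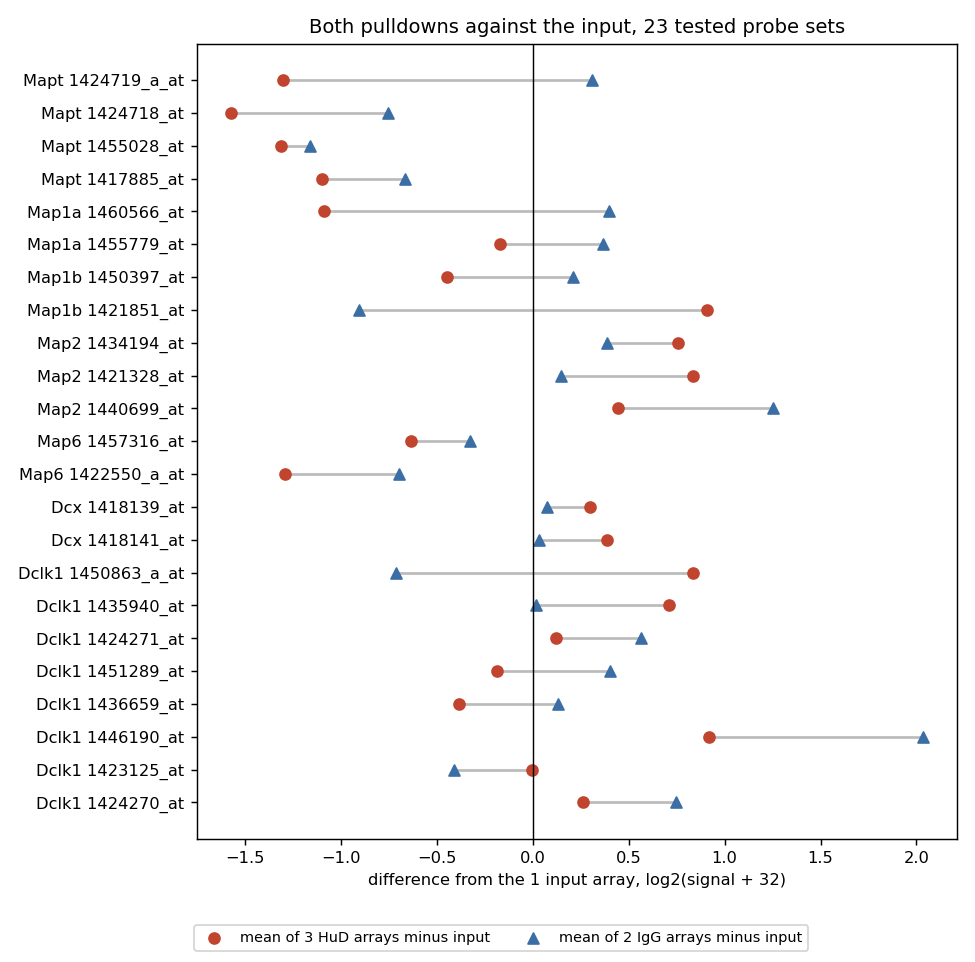
Log2 difference of the mean HuD signal (circles) and the mean IgG signal (triangles) from the single input array for the 23 tested probe sets, joined by grey lines. The 4 Mapt circles lie between −1.57 and −1.10, while Map1b 1421851_at and Dclk1 1450863_a_at have the circle above 0 and the triangle below it; all points share the input array.

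The sample titles carry 2 suffixes: HuD array 1, IgG array 1 and the input end in le1, and HuD arrays 2 and 3 and IgG array 2 in e1_le1. Within le1 the median difference of HuD from IgG over the 23 members was −0.27, beside −0.31 over all tested probe sets, and 15 members were below 0. Within e1_le1 the median was 0.06, beside −0.17 over all tested probe sets, and 11 members were below 0. The sign differed between the suffixes in 8 members (34.8%), beside 21.3% of all tested probe sets. All 5 called members kept their sign, with −2.12 and −1.12 for Mapt 1424719_a_at, −2.55 and −0.62 for Map1a 1460566_at, 1.16 and 2.31 for Map1b 1421851_at, 1.86 and 1.28 for Dclk1 1450863_a_at, and −1.35 and −0.92 for Dclk1 1446190_at, in the order le1 and e1_le1. For the other 3 Mapt probe sets and both of Map6 the sign was negative in le1 and positive in e1_le1. IgG array 1 was the brighter IgG array in 19 of the 23 members, and the median difference between the IgG arrays was 0.68 on the log2 scale. The same figures over all tested probe sets are not given here. Each suffix holds only 1 IgG array, so a suffix and that array cannot be told apart.

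**Figure D4:**
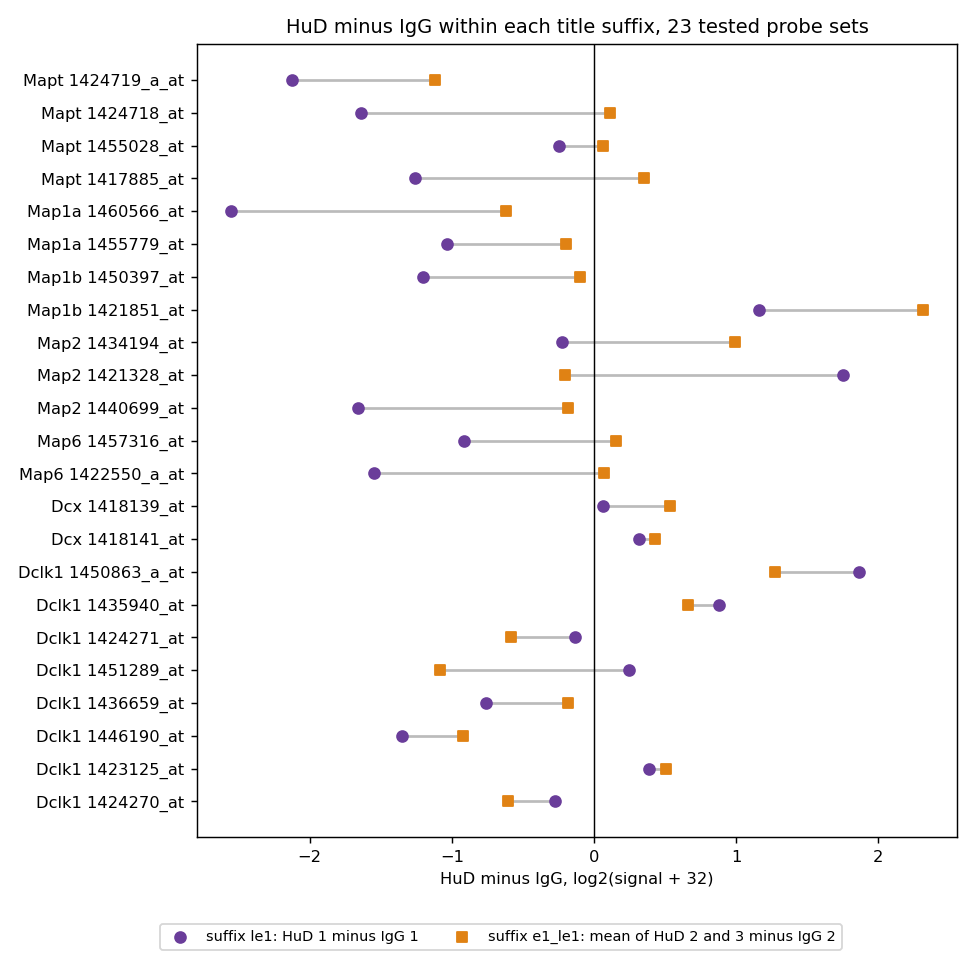
HuD minus IgG on the log2(signal + 32) scale within each title suffix for the 23 tested probe sets: circles are HuD array 1 minus IgG array 1, squares are the mean of HuD arrays 2 and 3 minus IgG array 2. The 2 marks of a row lie on opposite sides of 0 in 8 members, among them 3 of the 4 Mapt and both Map6 probe sets.

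Other genes around the microtubule were also read by the brightest probe set of each gene, beside the same shares of all genes called and a median over all genes of −0.29. Of 26 listed genes of other lattice-binding and plus-end or minus-end proteins 24 were tested, and of these 5 rose, 7 fell and 12 did not pass (median 0.11). With 75th percentile centring 7 rose and 2 fell, and with quantile normalization 2 rose. Map4, the widely expressed relative of tau and MAP2, rose 4.13-fold (2.05 ± 0.29, limma adjusted p = 0.000548), with 3605 to 6166 on the HuD arrays against 997 and 1069 with IgG and 1029 in the input. Its other 2 tested probe sets fell (−1.07 and −0.99). Mapre3, a plus-end binding EB protein of neurons, rose by 1.27 on the log2 scale, a call lost without IgG array 2 (0.93). Map7d1 fell 3.41-fold (−1.77 ± 0.38), and Camsap1, which caps minus ends, fell 2.44-fold (−1.29 ± 0.28).

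Kinases, phosphatases and a ligase that act on tau also had members on both sides. Of 21 listed genes 20 were tested, and 6 rose, 5 fell and 9 did not pass (median 0.08). The number that fell was 3 with 75th percentile centring and without HuD array 1, and 6 with quantile normalization. The number that rose was 4 without HuD array 1. Gsk3b, a main tau kinase, rose 3.84-fold (1.94 ± 0.25, limma adjusted p = 0.000429), from 934 and 1033 with IgG and 952 in the input to between 3227 and 4360 with HuD. The other 4 tested probe sets of Gsk3b ranged from −0.91 to 1.89, with 2 called higher and 1 lower. Mapk8, which encodes JNK1, rose 4.05-fold (2.02 ± 0.26), and Cdk5r1, the p35 activator of the tau kinase Cdk5, rose 3.08-fold (1.62 ± 0.31). Stub1, the ubiquitin ligase CHIP, fell 2.94-fold (−1.56 ± 0.27). Cdk5r1 had the highest limma adjusted p of these 4 genes, 0.00255.

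Of 18 listed genes of microtubule severing and tubulin modification 14 were tested, of which 1 rose (Katnal1, 1.06), 6 fell and 7 did not pass (median −0.54). The other tested probe set of Katnal1 was at −0.48 and did not pass. Sirt2, a deacetylase of tubulin, fell 2.89-fold (−1.53 ± 0.30), Ttl, the tubulin tyrosine ligase, fell 2.19-fold (−1.13 ± 0.26), Svbp, the partner of the vasohibin carboxypeptidases, fell 2.12-fold (−1.08 ± 0.34) and Ttll11 fell 2.10-fold (−1.07 ± 0.30). Svbp lost its call under 7 of 12 alternatives, with −0.47 without IgG array 2, and Ttll11 under 5. With 75th percentile centring 2 of the list's genes fell. Of 5 tested genes linked to doublecortin in neuronal migration, Ywhae (14-3-3 epsilon) rose by 1.20 ± 0.22, the dynein heavy chain gene Dync1h1 fell by 1.90 ± 0.43, and Pafah1b1, which encodes LIS1 (0.50), Ndel1 (0.24) and Nde1 (−0.06) did not pass, although another probe set of Pafah1b1 fell (−1.84). Dync1h1 read 212 to 399 with HuD, 2091 and 640 with IgG and 724 in the input, and without IgG array 1 the difference was −1.07 and still passed.

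**Figure D5:**
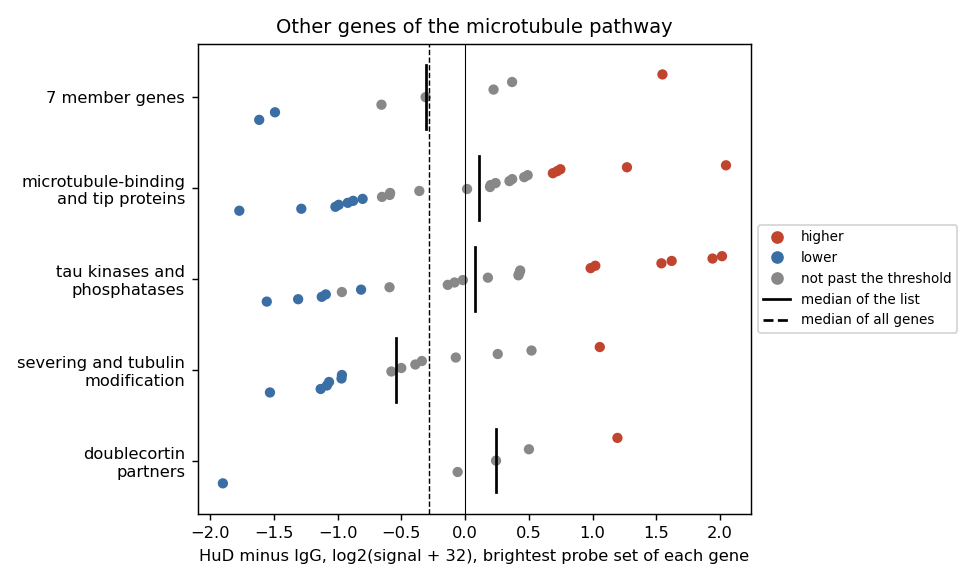
Log2 difference of HuD from IgG for the brightest probe set of each tested gene in the 7 member genes and 4 other lists (rows); red is called higher, blue lower and grey not past the threshold. Black bars are list medians (−0.31, 0.11, 0.08, −0.54 and 0.24 from top to bottom), and the dashed line is the median of all genes at −0.29.

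Profiles most like those of 3 members were sought among 11956 genes, by the root mean square difference of the log2 values over the 6 arrays after centring each probe set on its own mean. For Mapt 1424719_a_at these were Camkv (0.082), Rangap1 (0.090) and Inafm1 (0.11), where the median over all genes was 0.74. For Map2 1434194_at they were Psd (0.09), Tmcc2 (0.11) and Cplx2 (0.11), and for Dcx 1418139_at Cand1 (0.08), Tmppe (0.09) and Mtdh (0.09), with medians of 0.72 and 0.57. All of these profiles share the same 6 arrays.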

How the data were processed

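The file held 1 intensity per probe set and array, deposited by the authors on a linear scale. The mean without the lowest and highest 2% of values was 150.001 on every array, so the authors had scaled the arrays before deposit. The method behind the deposited signals and any genome build are not given in the sources used here. Of the probe sets, 64 array controls were left out; of the remaining 45037, the platform annotation gave 34945 1 symbol, 932 several and 9160 none. Entrez identifiers of 34741 were found in a RefSeq table (GRCm38.p6), used for names only, and 0 symbols needed an update.

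Signals were taken as log2(signal + 32). The 22518 probe sets above the median of mean log2 values were fitted with 1 mean per group over all 6 arrays (limma 3.58.1, R 4.3.3, eBayes with trend, 3 residual and 9.1 prior degrees of freedom), with Benjamini-Hochberg adjustment over all of them. Precision is limited by there being 6 arrays. The single input array is assumed to vary like the others, and the fit gives every group 1 common variance per probe set, while IgG arrays lay farther apart than HuD arrays. The fit of HuD against IgG was tested on simulated data with the same spread in every group and a small part of the probe sets raised. These settings differ from the data, so the simulation does not bear on single calls. Members, gene lists and tests were chosen with earlier results of these data known. Named were all members, the bait's gene, and of each other list up to 4 genes with the largest absolute difference. Outside this rule, Katnal1, Nde1, marker genes and the genes most like 3 members were also named. Replicate numbers follow the order of deposit. Alternatives were 3 other scalings, a pseudocount of 16, no filter, the title suffix as a block, eBayes without trend, each pulldown array left out, and the average over a gene's probe sets.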

Additional observations from a re-analysis of the deposited data

How the results depend on the processing

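Of the 5 members called between HuD and IgG, 4 kept their call under all 12 alternatives run per probe set and Map1a 1460566_at under 9. Of the 18 others, 7 were never called and 11 were called somewhere. The causes of these changes were not tested, except that a left-out array or a dropped filter changes the number of arrays or of tests.

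Scaling moved the median HuD to IgG difference of all tested probe sets from −0.26 to −0.11 (median centring), −0.06 (quantile) and 0.06 (75th percentile), and the share of calls that were higher from 36.1% to 48.5%, 51.2% and 63.2%. With 75th percentile centring 5 members were higher against IgG, 3 higher and 0 lower against the input, and over all probe sets 2829 were lower against IgG, 3828 higher and 1516 lower against the input and 104 higher for IgG against the input. With quantile normalization 4 members were higher against IgG, 1 higher and 0 lower against the input and 0 higher for IgG against the input, and over all probe sets 3794 were lower against IgG, 2234 lower against the input and 22 higher for IgG against the input. With median centring 0 members and 10 probe sets were higher for IgG against the input. A pseudocount of 16, like eBayes without the trend, gave 1 member higher against the input. With no filter 0 members were called against the input in either direction or for IgG against the input, and over all probe sets 1225 were higher and 1444 lower against the input and 0 called for IgG against the input. In each such count of 0, the tool was limma.

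The title suffix as a replicate block left 0 members lower against the input, 0 higher for IgG against the input, 2222 probe sets lower against the input and 0 called for IgG against the input. The suffix alone does not show whether arrays were paired. Deviations from the group means, taken across probe sets, correlated at −0.04 between HuD array 1 and IgG array 1. Between HuD arrays 2 and 3 and IgG array 2 they correlated at −0.30 and 0.31. The titles number HuD array 3 and IgG array 2 both as #2, and a pairing by these numbers was not fitted. With 2 IgG arrays the IgG deviations mirror each other, so these correlations cannot settle whether arrays were paired. Under the block, Dclk1 1435940_at was called higher against IgG, Mapt 1424719_a_at (−1.04) and Map6 1422550_a_at (−1.40) lost their calls against the input, and Dclk1 1446190_at its call for IgG against the input (2.06).

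With 1 array left out, members against IgG were 2 to 4 higher and 2 to 9 lower, against the input 0 to 2 higher and 0 to 6 lower, and for IgG against the input 0 to 2 higher. Over all probe sets these ranges were 3194 to 6046 lower against IgG, 1201 to 3061 higher and 1350 to 5213 lower against the input, and 0 to 524 higher and 0 to 64 lower for IgG against the input.

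Averaging the probe sets took Mapt to −0.75 against IgG, past no threshold, and turned the sign of Map1b (0.52), Map2 (−0.051) and Dclk1 (−0.049, from 1.55 on the brightest) against IgG, of Map1b (0.30) against the input, and of Mapt (−0.57), Map1b (−0.22) and Dclk1 (0.30) for IgG against the input. Changes of sign among single members concerned no called value. With 75th percentile centring they were Mapt 1455028_at (0.16) and Map6 1457316_at (0.0064) against IgG, and Map1a 1455779_at (0.18), Dclk1 1451289_at (0.16) and 1423125_at (0.35) against the input. With quantile normalization they were Map6 1457316_at (0.010) against IgG, Map1a 1455779_at (0.17), Dclk1 1451289_at (0.044) and 1423125_at (0.33) against the input, and Dcx 1418141_at (−0.045) for IgG against the input. With median centring, for IgG against the input, they were Map1b 1450397_at (−0.010), Map2 1421328_at (−0.072), Dcx 1418139_at (−0.14) and 1418141_at (−0.19), and Dclk1 1435940_at (−0.20) and 1436659_at (−0.087). With the replicate block they were Dclk1 1451289_at (0.12) and 1423125_at (0.18) against the input, and Map2 1421328_at (−0.021) for IgG against the input.

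With 1 array left out, members that crossed 0 against IgG ranged from −1.84 to 0.21 (Mapt 1424718_at), −0.50 to 0.22 (Mapt 1455028_at), −1.18 to 0.31 (Mapt 1417885_at), −0.29 to 1.02 (Map2 1434194_at), −0.039 to 1.42 (Map2 1421328_at), −0.64 to 0.017 (Map6 1457316_at) and −0.23 to 0.68 (Dcx 1418139_at). Against the input they ranged from −0.039 to 0.35 (Dclk1 1424271_at), −0.54 to 0.17 (1451289_at) and −0.080 to 0.092 (1423125_at). For IgG against the input they ranged from −0.17 to 0.79 (Mapt 1424719_a_at), −1.78 to 0.27 (1424718_at), −1.42 to 0.082 (1417885_at), −0.29 to 1.09 (Map1a 1460566_at), −0.36 to 0.78 (Map1b 1450397_at), −0.27 to 1.04 (Map2 1434194_at), −0.58 to 0.87 (1421328_at), −0.65 to 0.00021 (Map6 1457316_at), −0.38 to 0.53 (Dcx 1418139_at), −0.088 to 0.15 (1418141_at), −0.10 to 0.13 (Dclk1 1435940_at) and −0.31 to 0.57 (1436659_at).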
